A study of Mus musculus with 16 samples.

Results

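The 9 genes described here encode the signaling chains of the B cell antigen receptor and the surface and signaling proteins that tune it: Cd79a, Cd79b, Blk, Cr2, Fcer2a, Ms4a1, Cd22, Siglecg and Fcrla. They were taken by symbol from a table of 53465 genes, and all 9 were found there and passed the filter on low counts. They were measured by bulk RNA-seq in 16 MC38 tumors, a mouse colon adenocarcinoma line, implanted under the skin of the right flank of female C57BL/6 mice aged 6 to 8 weeks, with 1 tumor from each mouse.

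Every mouse entered the study with a tumor of 150 to 250 mm3 on day 16. Control mice (n = 8, tumors 1 to 8) received 200 µg of an IgG antibody and treated mice (n = 8, tumors 9 to 16) 200 µg of an antibody to PD-1 (aPD-1), on days 16 and 20, and tumors were taken on day 21. The aPD-1 tumors were divided by the study, after treatment and from staining for CD8 T cells, into 6 non-responders (tumors 9 to 14) and 2 responders (tumors 15 and 16). RNA came from 2 frozen sections of 100 µm per tumor, so that each value describes a small slice of a mixed tissue from a transplanted line, and the responder group rests on 2 mice.

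The B cell antigen receptor is a membrane immunoglobulin bound to a pair of chains, CD79A and CD79B, whose cytoplasmic tails carry tyrosine motifs that are phosphorylated by Src family kinases such as BLK when antigen binds. Coreceptors such as CD21 (the product of Cr2) lower the amount of antigen that is needed, and lectins such as CD22 and Siglec-G carry inhibitory tyrosine motifs that restrain the signal. In tumors, B cells are found in the stroma and in lymphoid aggregates, and in lymph nodes they fill the follicles.

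The stretches before the start sites of 4 of the genes are shown because they hold a match to a short motif of a B cell transcription factor. RefSeq promoter windows (GRCm38.p6, 250 bases before to 50 bases after the start) were found for 6 of the 9 genes, 9 windows in all, with 3 for Fcer2a and 2 for Siglecg; Cd79b, Ms4a1 and Blk had none. Both strands were searched for GAGGAA, the core bound by PU.1, for CCCNNGGG, a core bound by EBF1, and for the octamer ATTTGCAT, bound by the OCT factors. Capitals mark each match on either strand, each line runs 5′ to 3′ on the strand of its gene, and bases in annotated exons were left out. The Cd79a stretch lies at chr7:24897247-24897380 (plus strand), that of Siglecg at chr7:43407989-43408203 (plus strand) and that of Fcrla at chr1:170927584-170927833 (minus strand), all before the annotated gene. The Cd22 stretch, at chr7:30879029-30879176 (minus strand), lies in an intron of the longer annotated transcripts.
Cd79a: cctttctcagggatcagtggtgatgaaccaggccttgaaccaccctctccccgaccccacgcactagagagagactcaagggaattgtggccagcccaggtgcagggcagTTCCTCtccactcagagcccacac
Cd22: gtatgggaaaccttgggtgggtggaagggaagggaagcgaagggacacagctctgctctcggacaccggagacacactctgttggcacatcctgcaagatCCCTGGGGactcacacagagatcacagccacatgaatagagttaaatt
Siglecg: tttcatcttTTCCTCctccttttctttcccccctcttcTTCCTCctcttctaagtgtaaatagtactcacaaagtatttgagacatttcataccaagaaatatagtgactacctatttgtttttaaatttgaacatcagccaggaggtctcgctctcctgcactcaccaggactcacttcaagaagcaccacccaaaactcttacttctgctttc
Fcrla: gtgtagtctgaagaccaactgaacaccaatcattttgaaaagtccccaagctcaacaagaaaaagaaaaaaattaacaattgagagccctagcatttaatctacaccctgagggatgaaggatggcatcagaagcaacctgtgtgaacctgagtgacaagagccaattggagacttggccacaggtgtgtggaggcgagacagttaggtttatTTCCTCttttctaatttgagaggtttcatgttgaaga
The PU.1 core was held by 3 of the 9 windows (Cd79a, Siglecg and Fcrla) and by 28.3% of 32851 promoters of all genes. The EBF1 core was held by 1 window, that of Cd22, and by 13.7% of all promoters. The octamer was in 0 of the 9 windows and in 1.74% of all promoters. With 9 windows, these counts are near the shares over all promoters, and the printed stretches were picked for holding a match. A link between the motifs and the levels of the genes was not tested. The 9 genes are spread over 6 chromosomes, and none but Cd22 shares exonic bases with another annotated gene. The antisense gene Gm29439, which shares 479 exonic bases with Cd22, was at 0.0591 CPM in tumor 15 and at 0 in all 14 tumors that were not responders.

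Total counts per tumor lay between 26603497 and 39948901 (median 34105808), and levels are given as CPM, the counts of a gene per unit of library size after TMM scaling. The responders also stood apart in genes of other cell types. Of all genes tested, 12.5% were called higher in the responders than in the non-responders. The 6 fat cell genes Adipoq, Plin1, Cidec, Lep, Cfd and Fabp4 summed to 2287 CPM in tumor 15, to 404 CPM in tumor 16 and to between 16.8 and 144 CPM in the other 14 tumors, and all 6 rose against the non-responders. Of 6 epithelial genes, Epcam, Krt8, Krt18 and Krt19 rose, with a summed level over the 6 of 116 CPM in tumor 15, 50.5 CPM in tumor 16 and 4.61 to 12.2 CPM in the others. Vil1, a gene of intestinal epithelium, was at most 0.283 CPM in any tumor, and the median of Epcam over the 14 other tumors was 0.354 CPM. Of 7 tested markers of lymph node stroma and follicular dendritic cells 6 rose in the responders, among them Glycam1 of high endothelial venules, with 184 and 30.6 CPM against at most 1.02 CPM elsewhere. The part of these tissues in the results on B cell genes was not tested. In bulk tissue, more cells of a type and more RNA per cell cannot be told apart.

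Cd79a, Cd79b and the other 7 genes were all higher in both responders than in every non-responder and every IgG control tumor. The share of all genes with such a separation is not given here, so this only describes the 9 genes. In the lower responder, tumor 16, the level was between 21.9 times (Cd79b) and 67.4 times (Cd79a) that of the highest of the other 14 tumors. In a fit of all genes with edgeR's quasi-likelihood test, all 9 passed an adjusted p of 0.05 and a log2 fold change above 1, against non-responders and against IgG controls, where 12.5% and 14.3% of the 18251 genes tested were called higher. The median log2 fold change over the 9 was 7.37 against non-responders and 8.32 against IgG controls, beside 0.02 and -0.02 over all genes tested. The comparisons share the responders, and 4 of the genes (Ms4a1, Blk, Fcer2a and Fcrla) passed the filter on low counts only through them.

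**Figure D1:**
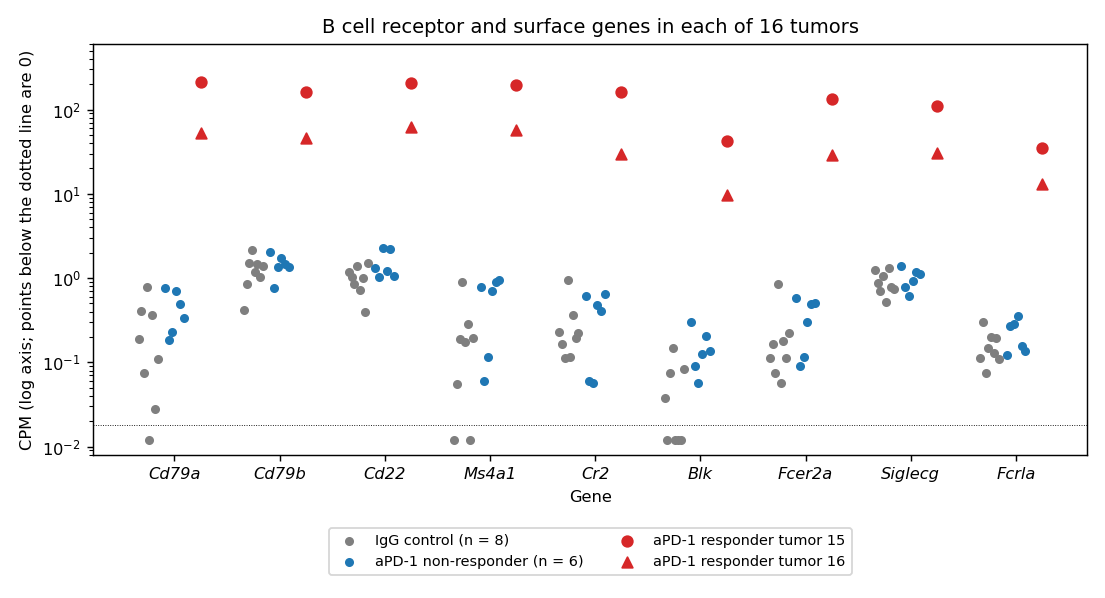
Level of each of the 9 genes in each tumor, in CPM on a log axis, with 1 point per tumor, IgG controls in grey, non-responders in blue and the responders in red (tumor 15 circles, tumor 16 triangles); points below the dotted line are at 0 counts. For Cd79a both responders, at 214 and 52.6 CPM, sit far above the other 14 tumors, whose highest is at 0.779 CPM, and tumor 15 is above tumor 16 for all 9 genes.

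The receptor's signaling pair stood at the highest levels per length of the 9 genes in both responders. Cd79a (ENSMUSG00000003379, chr7:24897381-24902197, GRCm38, plus strand) encodes CD79A, which pairs with CD79B in every receptor complex. It was at 214 CPM in responder tumor 15 and 52.6 CPM in tumor 16, between 0.182 and 0.763 CPM (median 0.414) in the non-responders, and between 0 and 0.779 CPM (median 0.150) in the IgG controls. The responders lay above all other tumors, and the non-responders and controls overlapped. The log2 fold change of Cd79a was 8.18 ± 0.68 (SE; edgeR adjusted p = 3.4e-07) against non-responders and 9.05 ± 0.63 (adjusted p = 2.6e-08) against IgG controls. Cd79b (ENSMUSG00000040592, chr11:106311341-106314762, minus strand) was at 159 and 46.6 CPM in the responders, between 0.759 and 2.04 CPM (median 1.41) in the non-responders and between 0.418 and 2.13 CPM (median 1.28) in the controls. It was counted in every tumor, and its distance to the responders was the shorter of the pair. The log2 fold changes of Cd79b were 6.14 ± 0.42 (edgeR adjusted p = 4.9e-08) and 6.36 ± 0.38 (adjusted p = 5.1e-09).

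Blk (ENSMUSG00000014453, chr14:63372836-63417037, minus strand) encodes a Src family kinase that can phosphorylate the tails of this pair. Its level was 42.3 CPM in tumor 15 and 9.73 CPM in tumor 16, from 0.0576 to 0.305 CPM (median 0.131) in the non-responders and from 0 to 0.150 CPM (median 0.0190) in the controls. In 4 of the 8 controls it had 0 counts and in no non-responder, which had 2 to 10 counts each. Against non-responders its log2 fold change was 7.37 ± 0.69 (edgeR adjusted p = 9.8e-07), and against controls 9.17 ± 0.68 (adjusted p = 4.7e-08).

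Cr2 (ENSMUSG00000026616, chr1:195136811-195176716, minus strand) encodes the complement receptor CD21, which binds C3 fragments on antigen and is carried by mature B cells and follicular dendritic cells. It was at 162 CPM in tumor 15 and 29.7 CPM in tumor 16. Non-responders held 0.0576 to 0.644 CPM (median 0.446) and controls 0.112 to 0.959 CPM (median 0.209), and the controls reached higher than the non-responders. Cr2 was higher in the responders by a log2 fold change of 7.98 ± 0.70 against non-responders (edgeR adjusted p = 5.3e-07) and 8.32 ± 0.63 against controls (adjusted p = 5.8e-08). Fcer2a (ENSMUSG00000005540, chr8:3681737-3694175, minus strand) encodes CD23, the low affinity receptor for IgE of mature B cells. Its levels were 132 and 29.2 CPM in the responders, 0.0911 to 0.580 CPM (median 0.396) in the non-responders and 0.0574 to 0.839 CPM (median 0.139) in the controls. As for Cr2, a single control tumor, number 4, was above every non-responder. The log2 fold changes of Fcer2a were 7.85 ± 0.67 (edgeR adjusted p = 4.0e-07) and 8.48 ± 0.61 (adjusted p = 3.6e-08).

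Ms4a1 (ENSMUSG00000024673, chr19:11249675-11266241, minus strand) encodes CD20, a membrane protein of B cells that is lost on plasma cells. It was at 195 and 57.6 CPM in the responders, at 0.0608 to 0.948 CPM (median 0.751) in the non-responders and at 0 to 0.899 CPM (median 0.180) in the controls, with 0 counts in 2 controls. Both responders were above all 14 other tumors, among which the levels ran from 0 to near 1 CPM with both groups mixed. The log2 fold change was 7.74 ± 0.77 against non-responders (edgeR adjusted p = 2.3e-06) and 9.10 ± 0.74 against controls (adjusted p = 1.4e-07).

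The inhibitory lectins showed smaller log2 differences than the genes above other than Cd79b. They were counted in every tumor, as were Cd79b, Cr2, Fcer2a and Fcrla. Cd22 (ENSMUSG00000030577, chr7:30865402-30880342, minus strand) encodes a lectin for sialic acid that recruits the phosphatase SHP-1. It stood at 205 and 62.5 CPM in the responders, 1.03 to 2.28 CPM (median 1.26) in the non-responders and 0.394 to 1.50 CPM (median 1.03) in the controls. Siglecg (ENSMUSG00000030468, chr7:43408204-43418358, plus strand) encodes a related inhibitory lectin. Its levels were 110 and 30.1 CPM in the responders, 0.605 to 1.37 CPM (median 1.01) in the non-responders and 0.516 to 1.32 CPM (median 0.831) in the controls, the narrowest spread of the 9 genes over the 14 tumors (2.66-fold from lowest to highest). Against non-responders the log2 fold changes of Cd22 and Siglecg were 6.45 ± 0.41 and 6.13 ± 0.37 (edgeR adjusted p = 1.8e-08 and 1.7e-08), and against controls 7.04 ± 0.37 and 6.27 ± 0.34 (adjusted p = 1.8e-09 for both).

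Fcrla (ENSMUSG00000038421, chr1:170917576-170927583, minus strand) encodes an Fc receptor-like protein that stays inside B cells. It was at 35.0 CPM in tumor 15 and 13.2 CPM in tumor 16, the closest pair of responder values among the 9 genes. Non-responders were between 0.122 and 0.354 CPM (median 0.214) and controls between 0.0749 and 0.301 CPM (median 0.140). Its log2 fold changes were 6.73 ± 0.41 (edgeR adjusted p = 1.7e-08) and 7.18 ± 0.38 (adjusted p = 1.8e-09).

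**Figure D2:**
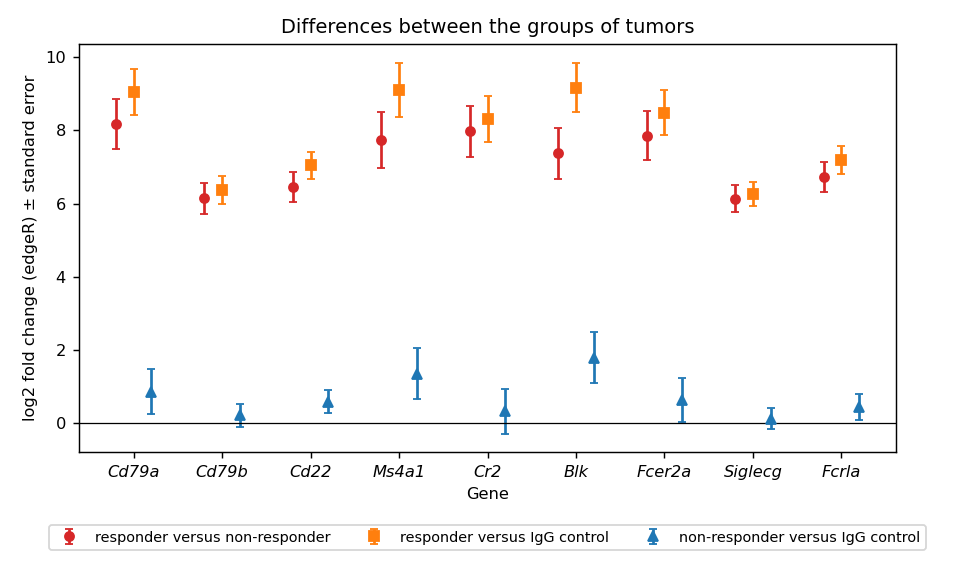
Log2 fold change of each of the 9 genes with its standard error from the edgeR fit, for responders against non-responders (red circles), responders against IgG controls (orange squares) and non-responders against IgG controls (blue triangles). The responder differences lie between 6.13 and 9.17 and the non-responder differences between 0.13 and 1.80.

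For every one of the 9 genes, an exact two-sided permutation test of mean log2 CPM gave p = 0.0357 against non-responders and p = 0.0222 against controls, the smallest values that 28 and 45 regroupings can give. These values rest on the same separation of the groups and add no second line of support. The share of all genes that reach them is not given here, so they only describe the 9 genes. The size of the difference depended on which responder was kept. With either left out, the responder arm is 1 tumor, which the fit assumes to vary like the tumors of the other groups, so that these calls are no check on the spread between responders. Without tumor 15 the log2 fold changes against non-responders ranged from 4.84 (Siglecg) to 6.77 (Cd79a), and without tumor 16 from 6.72 (Cd79b) to 8.81 (Cd79a), with all 9 genes called in both cases. Against controls they ranged from 4.97 (Siglecg) to 7.89 (Ms4a1) without tumor 15 and from 6.86 (Siglecg) to 9.82 (Blk) without tumor 16, again with all 9 called. The highest edgeR adjusted p of any of the 9 genes against non-responders, leaving out each tumor in turn, was 5.2e-04, for Ms4a1 with tumor 16 as the only responder.

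The responders were not alike. Tumor 15 was above tumor 16 for all 9 genes, by 2.66-fold for Fcrla (95% counting interval 2.39 to 2.97) to 5.45-fold for Cr2 (5.10 to 5.83), with a median of 3.65-fold. Over 18059 genes counted in both tumors the median ratio was 1.02. Cr2, Fcer2a (4.53-fold), Blk (4.35-fold) and Cd79a (4.07-fold) differed most, and Cd79b (3.42-fold), Ms4a1 (3.39-fold), Cd22 (3.27-fold) and Fcrla least. These intervals cover counting error only, and with 1 tumor on each side the ratio has no replicate check. Summed over the 9 genes the level was 1255 CPM in tumor 15 and 331 CPM in tumor 16. The 8 T cell genes had a median ratio of 1.08 and a range of 0.85 to 1.42. Fat cell genes differed in the same direction, with Adipoq at 189 and 31.0 CPM.

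**Figure D3:**
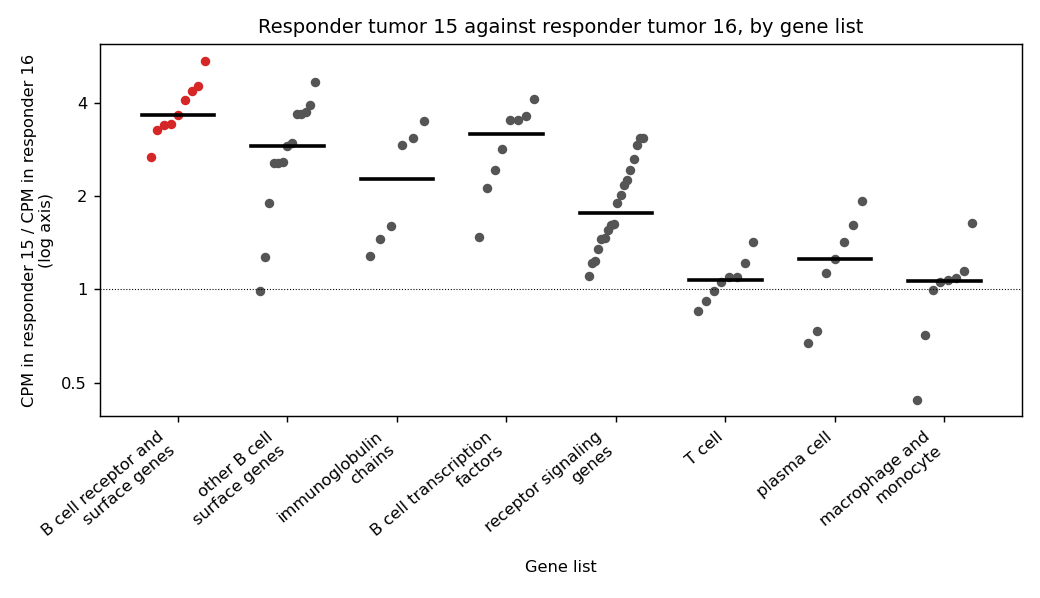
Ratio of CPM in responder tumor 15 to CPM in responder tumor 16 for single genes of 8 lists, on a log axis, with a bar at the median of each list and a dotted line at equal levels. The 9 B cell receptor and surface genes (red) lie between 2.66 and 5.45, the T cell genes between 0.85 and 1.42.

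Among the genes, levels were compared per kilobase of annotated exon. In tumor 15, Cd79a (147 CPM per kb) and Cd79b (111) stood above Fcer2a (42.8), Cd22 (40.6), Ms4a1 (31.6), Siglecg (22.9), Fcrla (20.1), Cr2 (20.0) and Blk (15.7). In tumor 16 the order was Cd79a (36.1 CPM per kb), Cd79b (32.5), Cd22 (12.4), Fcer2a (9.44), Ms4a1 (9.30), Fcrla (7.54), Siglecg (6.27), Cr2 (3.66) and Blk (3.61). Cd22 and Fcer2a, and Siglecg and Fcrla, changed places between the tumors, so that their order is not settled by 2 mice, while Cd79a and Cd79b led and Cr2 and Blk closed the order in both. In the other 14 tumors Cd79b had the highest median, at 0.957 CPM per kb, and Cr2 the lowest, at 0.0277. The lengths are unions of all annotated exons (1431 bases for Cd79b to 8112 for Cr2) and can exceed that of the transcript in use.

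Between non-responders and IgG controls, 0 of the 9 genes were called in the same fit, with an edgeR adjusted p of 0.987 for each, beside 0% of all 18251 genes called, 694 genes at an unadjusted p below 0.05 and 4 genes called by DESeq2. The log2 differences were all above 0, with a median of 0.60 beside -0.01 over all genes. They ran from 0.13 for Siglecg (approximate 95% interval -0.43 to 0.70) and 0.22 for Cd79b (-0.41 to 0.84) to 1.36 for Ms4a1 (-0.02 to 2.74) and 1.80 for Blk (0.41 to 3.18). Blk alone had an unadjusted p below 0.05 (0.0212; exact permutation p = 0.0117), on 0 to 10 counts per tumor. That count turned on single tumors, since 4 of the 9 genes were below 0.05 without control tumor 4 and 0 without non-responder tumor 9, with 0 called in either case. Without tumor 4 the log2 difference of Ms4a1 was 2.14, that of Fcer2a 1.33, that of Cr2 0.88, that of Cd79a 1.38 and that of Blk 2.41. The direction of Cd79b and Cr2 was not stable, at -0.03 and -0.22 without the 3 tumors of highest mitochondrial share (tumors 1, 9 and 14). The groups overlapped for all 9 genes. The intervals leave room for a difference of several-fold for Ms4a1 and Blk, so that equal levels were not shown.

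All 8 aPD-1 tumors together, the comparison that was randomized, gave a median log2 fold change of 6.33 over the 9 genes against IgG controls, from 4.33 (Siglecg) to 7.19 (Blk), with standard errors of 1.14 to 1.70. None of the 9 passed, at an edgeR adjusted p of 0.153 for each, and 0% of all genes were called. By unadjusted edgeR p, all 9 genes and 2463 genes in all were below 0.05. The exact permutation p was not below 0.05 for Cr2 (0.162), Siglecg (0.130) and Cd79b (0.0982). For the other genes it lay between 0.00311 (Blk) and 0.0485 (Fcer2a). The 6 non-responders among the treated tumors overlapped the controls for all 9 genes. DESeq2 called 6 of the 9 (Cd79a, Cd22, Ms4a1, Blk, Fcer2a and Fcrla), after it had replaced the counts of tumor 15 as outlying for all 9 genes, beside 107 of 18787 genes (0.57%) called higher in that fit. Where those counts were kept it called 9, beside 432 of 19951 genes (2.17%).

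Among the 14 tumors that were not responders, the summed level of the 9 genes ran from 2.76 CPM in control tumor 7 to 8.33 CPM in control tumor 4. The next highest were non-responder tumors 9 (7.90 CPM), 13 (7.53), 12 (6.53) and 14 (6.23), and the lowest non-responder was tumor 10 (3.34). Cd79b, Cd22, Siglecg and Fcrla were counted in each of the 14 tumors and varied 2.66- to 5.78-fold. Cr2 and Fcer2a, also counted in each, varied 16.7-fold and 14.6-fold, while Cd79a, Ms4a1 and Blk were at 0 counts in 1, 2 and 4 tumors. Across the 14 tumors, the 36 pairs of genes had a median Pearson r of log2 CPM of 0.51 (lowest -0.35, highest 0.91 for Cr2 with Fcer2a), a description of tumors that share their depth and low counts. The venule gene Glycam1 was at 1.02 CPM in tumor 4, at 0.580, 0.557, 0.463 and 0.339 CPM in tumors 9, 12, 13 and 14, and at most 0.104 CPM in the other 9 of these tumors.

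**Figure D4:**
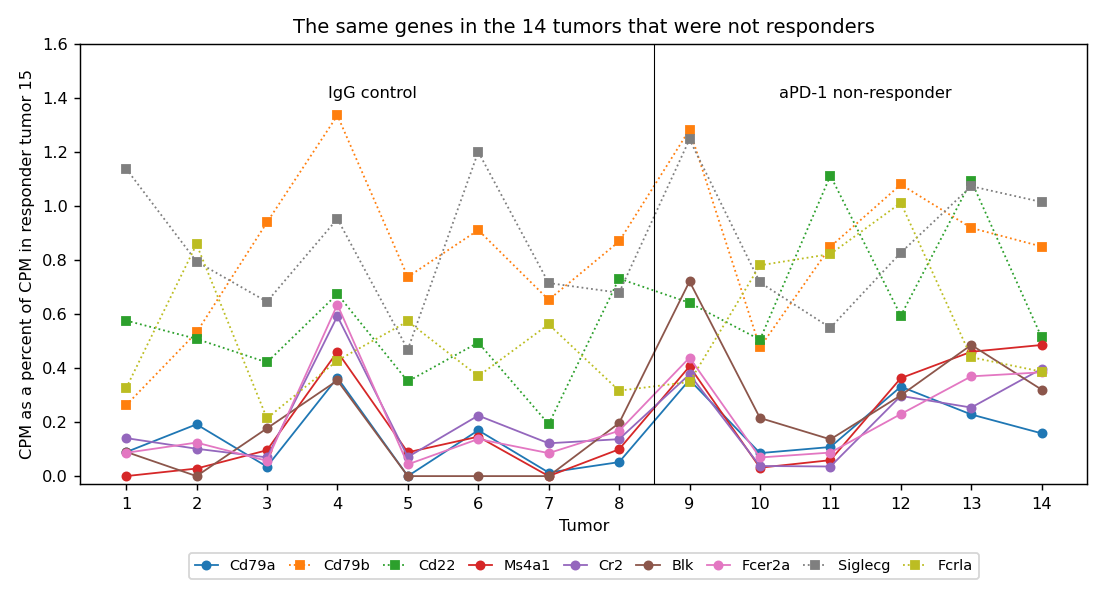
Level of the 9 genes in the 14 tumors that were not responders, as a percent of the CPM of the same gene in responder tumor 15, with tumor number on the horizontal axis and a vertical line between controls and non-responders. Solid lines mark Cd79a, Ms4a1, Cr2, Blk and Fcer2a and dotted lines Cd79b, Cd22, Siglecg and Fcrla; all points lie between 0% and 1.34%, and tumor 4 is the highest control for Cd79a, Cd79b, Ms4a1, Cr2, Blk and Fcer2a.

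Other genes of the B cell rose beside them, in lists chosen by function. For these lists and those that follow, the share of all genes tested that were called higher in responders than in non-responders was 12.5%. Of 13 other B cell surface genes 11 were called higher in responders than in non-responders (median log2 fold change 3.53), among them Fcmr, the receptor for IgM (8.00 ± 0.64), Tnfrsf13c, the receptor for the survival factor BAFF (7.55 ± 0.58), and Cxcr5, the receptor that leads B cells to follicles (7.09 ± 0.54; edgeR adjusted p = 2.2e-07, 1.5e-07 and 1.4e-07). Cd72 (0.16 ± 0.38) and Fcgr2b (0.15 ± 0.13), both also carried by myeloid cells, did not pass (edgeR adjusted p = 0.83 and 0.48). All 6 immunoglobulin chain genes rose, with a median of 7.32. Ighd, the chain of IgD of mature B cells that have not switched class, had a log2 fold change of 7.98 ± 0.74 and a ratio of 3.49 between tumors 15 and 16, and Ighm, which plasma cells also make, 5.45 ± 0.36 and a ratio of 1.45.

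Of 18 genes of receptor signaling 11 rose, with a median log2 fold change of 1.31. Bank1, a B cell scaffold protein, had a log2 fold change of 6.43 ± 0.48 (edgeR adjusted p = 1.1e-07), and Blnk, the adaptor downstream of the kinase SYK, 2.50 ± 0.34. Syk itself rose by 2.15 ± 0.24 and Btk by 1.83 ± 0.26. Plcg2 (0.41 ± 0.17) and Bcl10 (0.15 ± 0.12), which many immune cells use, did not pass, and Lyn (0.51 ± 0.17) and Cd81 (-0.33 ± 0.11), with adjusted p = 0.040 and 0.039, were under the fold required. Ptpn6, which encodes the phosphatase SHP-1 recruited by CD22, rose by 1.38 ± 0.18. Of 8 B cell transcription factors 7 rose (median 3.29), led by the coactivator Pou2af1 (8.05 ± 0.68) and by Pax5, which sets B cell identity (6.86 ± 0.53), and Pou2f2 (1.63 ± 0.64) did not pass.

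Of 6 genes for ligands of these receptors, or for the enzymes that make them, 5 rose in responders against non-responders (median 3.35). C3 and C4b, the sources of complement fragments on antigen, had log2 fold changes of 3.32 ± 0.65 and 3.39 ± 0.78. St6gal1, the enzyme that makes the sialic acid linkage bound by CD22, had 1.91 ± 0.34, and Cmah, which makes the form of sialic acid that mouse CD22 prefers, 5.44 ± 0.66. Cxcl13, the ligand of CXCR5, had 5.53 ± 0.60. Tnfsf13b, which encodes BAFF, was at -0.06 ± 0.36 (edgeR adjusted p = 0.94).

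Markers of other cells were also higher in the responders. All 8 T cell genes rose, with a median log2 fold change of 3.54 and a summed level of 182 and 167 CPM in the responders against 9.89 to 28.1 CPM in the non-responders and 6.57 to 18.3 CPM in the controls. The study set the responders apart by CD8 T cell staining, so a rise of T cell genes is partly built into the groups. Of 7 plasma cell genes 4 rose, Jchain (8.00 ± 0.92) and Mzb1 (7.96 ± 0.74) among them, while Sdc1 (-0.17 ± 0.24) and Prdm1 (-0.25 ± 0.35) did not pass. Of 7 germinal center genes 4 rose, among them Gcsam (4.25 ± 0.61), which was at 12.9 CPM in tumor 15 and 3.35 CPM in tumor 16, and Bcl6 (0.35 ± 0.31) did not pass. Of 7 plasmacytoid dendritic cell genes 4 rose and 1, Cox6a2, fell. Of 8 macrophage genes only Mrc1 rose (1.65 ± 0.50), which is no more than the 12.5% of all genes called higher. Between non-responders and controls 0 genes of any of these lists were called.

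The genes most like the 9 were sought by correlation of log2 CPM with their mean standardized level. Over all 16 tumors the 10 closest of 16402 genes were Gm42870 (r = 0.99), Slamf6, Ighv1-64, Pax5, Ighv1-19, Fcmr, Ighv14-4, Bcl11a, Igkv3-5 and Igkv4-59. This order turns on the 2 responders, and 3 of the 10 remained with a Spearman correlation. Over the 14 other tumors, of 15965 genes, Ighd (r = 0.89), Pax5 (0.86), Ighg1 (0.84), Ighg2b (0.81), Jchain (0.79), Slamf6 (0.78), Gm42901 (0.75), Gm20559 (0.75) and Bcl11a (0.74) were among the 10 closest. With a Spearman correlation 7 of the 10 remained. Gm42901 was not high in the responders, at 0.0591 and 0.337 CPM in tumors 15 and 16 beside a median of 0.304 CPM in the 14 others. Pax5, Slamf6 and Bcl11a were in both lists. These correlations are descriptions over tumors that share depth and groups.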

How the data were processed

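The authors aligned paired reads of poly(A), strand-specific libraries with STAR 2.6 (GRCm38) and quantified them with RSEM 1.3.0 on Ensembl release 91. The deposited values are expected counts per gene, 7.83% of them not whole, and were rounded here. Whether RSEM used the strand is not given in the sources used here. The 92 spike-in entries were left out. They held 185 counts in control tumor 4, 163 in responder tumor 15, 48 in tumor 12, 33 in tumor 3 and 0 in the others. Positions and exonic lengths came from GENCODE mouse release 21.

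R 4.3.3 with edgeR 4.0.16 (TMM, filterByExpr over the 3 groups, robust quasi-likelihood test) was used on all 16 tumors, with Benjamini-Hochberg adjustment over 18251 genes. A gene was called, or said to have risen or fallen, where its adjusted p was under 0.05 and its log2 fold change beyond 1. The aPD-1 comparison had 2 groups. Each SE was the size of the log2 fold change divided by the square root of its F statistic. The approximate 95% intervals of log2 differences used a normal multiple of this SE and are somewhat too narrow. Correlations used log2 CPM (prior count 2) of genes averaging 10 or more counts. Of these steps, only the edgeR fit of the 3 groups was run on simulated counts, and its outcome there is not given here.

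Alternatives were DESeq2 1.42.0, median-of-ratios scaling, no filter, a filter of 10 counts in 8 tumors, fits restricted to the compared groups, and omission of each tumor. Chosen after seeing the data were the omission of 3 tumors of highest mitochondrial share, DESeq2 with outlying counts kept, and the epithelial and fat cell lists. The 9 genes, the 11 other lists and the naming rule (the 9 genes, the listed genes, and the 10 genes most correlated with the 9) were chosen with earlier results of these data known. Results for some single genes that the lists and the rule cover are not reported here. Each tumor came from another mouse.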

Additional observations from a re-analysis of the deposited data

Results flagged for a closer look

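In IgG control tumor 4, 3 of the 9 genes stood far above the other 7 controls by Dixon's test (critical value 0.526 for 8 tumors). Ms4a1 was at 0.899 CPM there and at 0.285 CPM in the next control, a gap of 0.683 of the range of the group. Cr2 was at 0.959 CPM and next at 0.363 CPM (0.704 of the range), and Fcer2a at 0.839 CPM and next at 0.222 CPM (0.790 of the range). The test was made in 18 groups of values, and chance flags about 1 in 20 where values are normal and groups independent. These 3 genes varied together over the 14 tumors (Pearson r from 0.74 to 0.91), so their flags are not separate events. Tumor 4 also held the most Ighd (1.20 CPM) and Glycam1 (1.02 CPM) of the controls. Spike-in entries had their highest counts in tumor 4 (185) and responder tumor 15 (163). Whether reads of a responder library were assigned to others was not tested.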

How the results depend on the processing

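No paired analysis was possible because the tumors carry the numbers 1 to 16 and no number is shared between groups. The count of genes called in responders was 9 of 9 against non-responders and against controls under every alternative that tested all 9, with leave-one-out ranges of 9 to 9 (without a responder, the lone one is assumed to vary like the other groups), and 6 of 6 under the stricter filter, which drops Blk, Fcer2a and Fcrla. Of those 6, Cd79a, Ms4a1 and Cr2 reached 10 counts in 8 tumors only with the responders included, so the stricter filter is no separate check on them. Against controls, non-responders had 0 called under every alternative, with a leave-one-out range of 0 to 0, although a fit of those 14 tumors alone tested 5 of the 9. For aPD-1 against IgG the leave-one-out range was 0 to 0 (edgeR adjusted p 0.0974 to 0.389), DESeq2 called 6 with the counts of tumor 15 replaced (0.57% of all genes called higher), and DESeq2 with outlying counts kept called 9 (2.17%). Its median log2 fold change over the 9 genes was 3.76 with replacement. Over all genes, leaving out tumor 15 lowered the calls against non-responders from 2289 higher and 121 lower to 886 and 37, and against controls from 2612 and 117 to 1204 and 39. Leaving out the 3 tumors of highest mitochondrial share (tumors 1, 9 and 14) kept all 9 calls in both responder comparisons. Blk, Ms4a1 and Cd79a had 0 counts in some controls. Their log2 fold changes in responders against controls were 9.17, 9.10 and 9.05 in the main fit and 9.28, 9.14 and 9.08 with DESeq2.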
